A study of Mus musculus with 6 samples.

Results

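The genes described here are 38 genes of ribosome biogenesis and MYC-driven growth, chosen by name from 29590 genes on a mouse whole-genome array. Every noncontrol probe carrying a member's name was collected, and the probe brightest on average over the arrays stood for the gene. All 38 members were on the array, and all 38 were well above background on all 6 arrays, so none was lost to a filter on dim signal. The members were read from 60 probes, 1 probe for each of 23 members and several for the other 15.

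The RNA came from bone marrow-derived mast cells, grown in interleukin-3 (10 ng/ml). On 4 arrays the mast cells had spent 4 days on Swiss 3T3 cells, an established mouse fibroblast line, with stem cell factor (100 ng/ml). These cocultures were mast cells labelled Pla2g3-/- on wild-type fibroblasts, Pla2g3+/+ mast cells on wild-type fibroblasts, wild-type mast cells on Lpar1-/- fibroblasts, and wild-type mast cells on Lpar1+/+ fibroblasts. On the other 2 arrays, mast cells labelled Pla2g3-/- and Pla2g3+/+ mast cells had been kept without fibroblasts. Each group was 1 array of RNA pooled from 3 samples, so no difference below has a replicate check and no p-value is given. The Lpar1-/- fibroblasts were made with CRISPR/Cas9 and passed through single-cell cloning, and the number of clones, the age of the mice and the deleted stretch of Pla2g3 were not given in the sources used here. Whether the mast cells alone received stem cell factor, and whether the wild-type cocultures shared animals, was not given either.

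A ribosome starts in the nucleolus, where RNA polymerase I transcribes the ribosomal RNA precursor. Small nucleolar ribonucleoproteins and a large set of helicases, GTPases and scaffold proteins then modify, cut and fold this precursor into the small and the large subunit. The transcription factor MYC, bound to its partner MAX, activates many genes of this pathway and the polyamine enzymes that growing cells need, whereas proteins of the MXD family also bind MAX and repress. Mast cells that mature on fibroblasts with stem cell factor become more like the mast cells of connective tissue.

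Levels are log2 of the processed signal over the 75th percentile of the same array, so 0 is a spot at that percentile, and differences are between arrays for the same probe. That percentile lay between 1230 and 1520 scanner units, and the share of spots well above background was lowest at 70.7% and highest at 80.4%. The yardstick for every difference was the pair of wild-type mast cell cultures on wild-type fibroblasts, the Lpar1+/+ array minus the Pla2g3+/+ array. Both arrays were cocultures on the same slide, so the pair holds no variation between slides or between cultures of cells alone. Over the 38 members this pair differed by -0.11 to 0.31, with a median of 0.04 and a standard deviation of 0.08, and Mxd1 gave the largest difference. A difference of at least 2-fold, 1 on the log2 scale, was counted as higher or lower. In the yardstick pair 0 of 38 members were higher and 0 lower, against 0.803% and 0.166% of all genes. The scanner software's error of a difference had a median of 0.20 over the members.

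Markers checked the labels. Of 10 mast cell genes, all 10 were well above background on all 6 arrays, and Kit, Fcer1a and Cpa3 read between 6.45 and 7.29. Mitf read between 3.99 and 4.33, and Ms4a2 between 3.23 and 3.66. Hdc, Mcpt4 and Tpsb2 were the least even of the mast cell genes, and their coculture values stand with the other markers below. Pla2g3 went against its label, being 44.4-fold higher in coculture and 113-fold higher without fibroblasts on the array labelled Pla2g3-/- than on the Pla2g3+/+ array, so each direction below that involves this array rests on its label. The Lpar1 probe read -3.89 on the Lpar1-/- array and -4.14 on the Lpar1+/+ array, but also -2.85 and -2.84 without fibroblasts, so it does not check the fibroblast label. Fibroblast transcripts were part of the coculture RNA: the summed signal of 20 fibroblast genes, in units of the 75th percentile, was 17.1 on the coculture array labelled Pla2g3-/-, 37.0 on the Pla2g3+/+ coculture array, 37.9 with Lpar1-/- and 37.4 with Lpar1+/+ fibroblasts, and 0.89 and 1.01 without fibroblasts. Of these 20 genes, 18 or 19 were well above background in the cocultures and 10 without fibroblasts, while Lum was well above background on 0 of the 6. In such bulk RNA, fewer cells of a type and less RNA per cell cannot be told apart.

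Promoter windows were available for 31 of the 38 members, from RefSeq on build GRCm38.p6, each running from 250 bases before the gene's start to 50 bases after it. They were searched on both strands for CACGTG, the canonical E-box that MYC and MAX can bind, which is its own reverse complement, and for CACGCG, a variant E-box read as CGCGTG on the other strand. The 2 motifs cannot match at the same position. CACGTG was present in 8 of the 31 members (25.8%), against 8.1% of 27025 genes with a window. CACGCG was present in 10 of the 31 (32.3%), against 10.5% of those genes. The windows of 5 members are printed because the results below turn on these genes; they were chosen after the values were seen. Bysl (chr17:47611443-47611742, minus strand), Ppan (chr9:20887925-20888224, plus strand) and Ddx21 (chr10:62602249-62602548, minus strand) carry CACGCG and were at least 2-fold lower in both coculture comparisons described below. Pno1 (chr11:17211540-17211839, minus strand) carries CACGTG and lay just short of 2-fold. Pes1 (chr11:3963725-3964024, plus strand) carries both motifs and was not lower with its brightest probe, while its other probe differed by -0.75 and -0.73. Capitals mark every copy of either motif, and the sequences read 5′ to 3′ toward the gene.
Bysl: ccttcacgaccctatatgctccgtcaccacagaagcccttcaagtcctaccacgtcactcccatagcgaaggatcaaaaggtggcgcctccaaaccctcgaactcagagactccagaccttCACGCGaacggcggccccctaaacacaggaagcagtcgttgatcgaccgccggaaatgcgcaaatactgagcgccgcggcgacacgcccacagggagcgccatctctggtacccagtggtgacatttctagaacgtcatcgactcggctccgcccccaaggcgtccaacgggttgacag
Ppan: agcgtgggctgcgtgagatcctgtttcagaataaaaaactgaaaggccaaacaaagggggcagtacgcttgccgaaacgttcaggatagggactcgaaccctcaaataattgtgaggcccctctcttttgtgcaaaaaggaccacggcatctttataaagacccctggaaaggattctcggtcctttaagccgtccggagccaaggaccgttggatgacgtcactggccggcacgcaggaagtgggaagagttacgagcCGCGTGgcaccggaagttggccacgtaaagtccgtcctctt
Ddx21: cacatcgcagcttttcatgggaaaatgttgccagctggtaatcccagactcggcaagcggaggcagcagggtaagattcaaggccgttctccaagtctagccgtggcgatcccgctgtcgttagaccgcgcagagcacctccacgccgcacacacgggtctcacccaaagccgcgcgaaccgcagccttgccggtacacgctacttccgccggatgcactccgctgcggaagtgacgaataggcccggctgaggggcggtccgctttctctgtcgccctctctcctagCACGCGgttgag
Pno1: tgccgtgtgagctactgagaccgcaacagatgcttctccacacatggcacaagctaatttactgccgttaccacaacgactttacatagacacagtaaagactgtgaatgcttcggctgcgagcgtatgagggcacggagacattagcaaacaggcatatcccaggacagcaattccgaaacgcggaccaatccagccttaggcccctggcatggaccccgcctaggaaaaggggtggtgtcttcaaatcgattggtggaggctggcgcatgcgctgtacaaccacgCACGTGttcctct
Pes1: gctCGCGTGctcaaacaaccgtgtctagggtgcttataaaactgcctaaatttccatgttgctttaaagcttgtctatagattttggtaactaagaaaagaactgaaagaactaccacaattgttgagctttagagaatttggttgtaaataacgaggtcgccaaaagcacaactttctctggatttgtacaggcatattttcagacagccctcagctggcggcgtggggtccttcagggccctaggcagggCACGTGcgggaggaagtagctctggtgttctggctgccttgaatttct
The motif in the Bysl window begins 129 bases before the gene's start, and those in the Ppan, Ddx21 and Pno1 windows begin 9, 38 and 37 bases after it. Of the 8 members that were lower in both coculture comparisons, 5 had a window (Nop58, Gnl3, Ddx21, Bysl and Ppan), and CACGTG was in 0 of these and CACGCG in 3. A match describes these letters in this window and does not show binding.

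Across the 6 arrays, the members fell into an order that most of them shared. On both the coculture array labelled Pla2g3-/- and the array of wild-type mast cells on Lpar1-/- fibroblasts, 29 of the 38 members were lower than on all 4 other arrays. On both arrays without fibroblasts, 28 members were higher than on all 4 coculture arrays. Neither count was made over all genes, so whether this order is particular to the members was not tested. The median level of the members, each taken relative to its own mean over the 6 arrays, was -0.41 on the coculture array labelled Pla2g3-/- and 0.01 on the Pla2g3+/+ coculture array. It was -0.46 with Lpar1-/- and 0.06 with Lpar1+/+ fibroblasts. Without fibroblasts it was 0.40 on the array labelled Pla2g3-/- and 0.54 on the Pla2g3+/+ array. The 4 members that were higher in every coculture than without fibroblasts were Max, Mxd1, Mxd4 and the large subunit factor Wdr12. The span of a member over the 6 arrays had a median of 1.19, and 24 of 38 members spanned at least 1. Spans were not taken over all genes. Myc had the widest span (3.23) and Pes1 the narrowest (0.25).

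**Figure D1:**
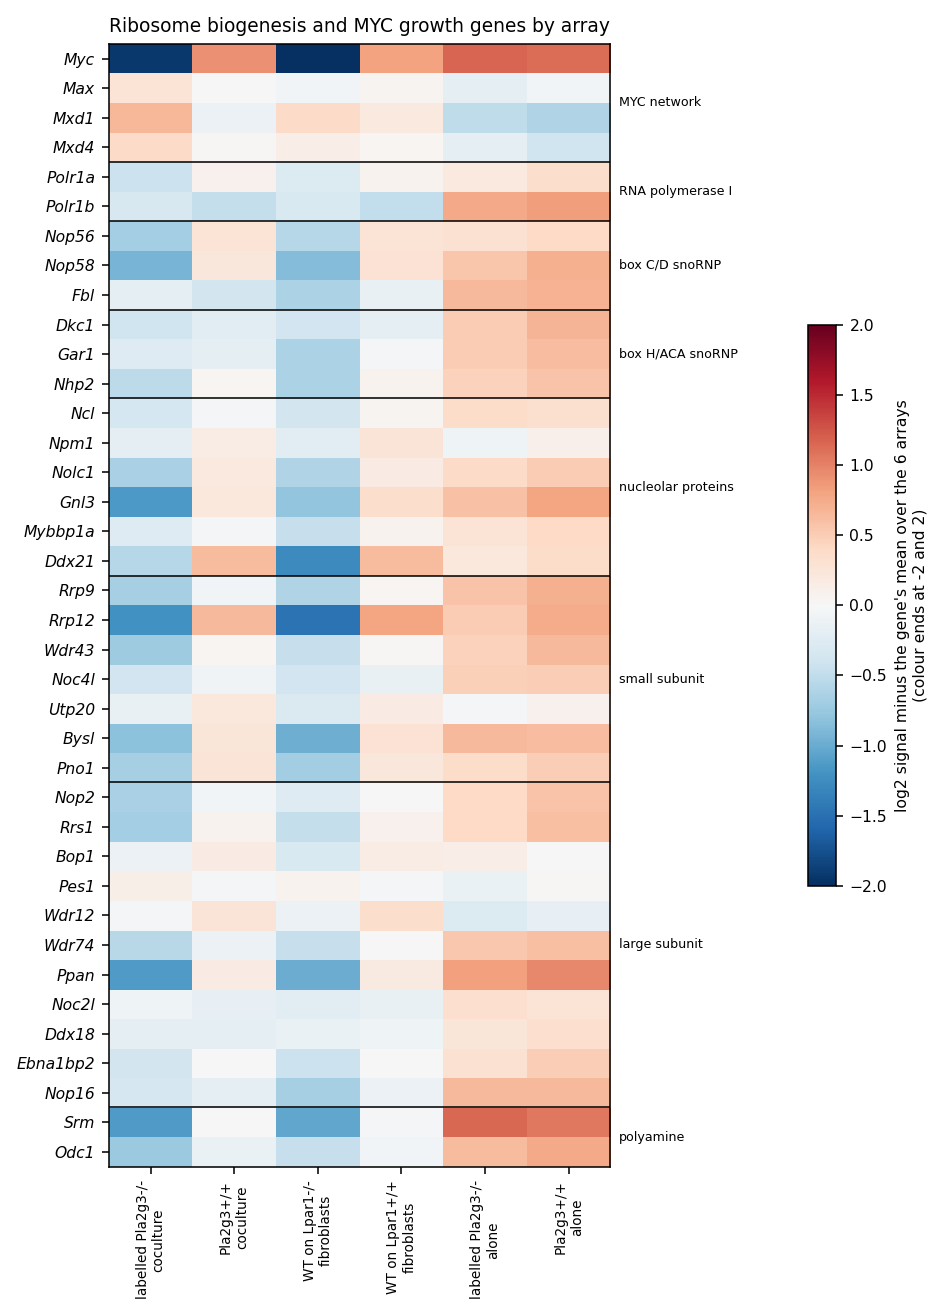
Heat map of the 38 members (rows, grouped by role) on the 6 arrays (columns). Colour is the log2 signal minus the gene's own mean over the 6 arrays, from blue at -2 to red at 2; the columns of the coculture labelled Pla2g3-/- and of wild-type mast cells on Lpar1-/- fibroblasts are blue in most rows, and the columns without fibroblasts are red in most rows.

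Myc and factors from several steps of ribosome assembly were lower on the coculture array labelled Pla2g3-/- than on the Pla2g3+/+ coculture array. Lower by at least 2-fold were 8 of the 38 members (21.1%), against 10.4% of 22505 genes, and 0 were higher, against 9.1% of genes. The members' median difference was -0.39, against -0.08 over all genes. Below 0 lay 31 of 38 members, against 12470 of 22505 genes. Beyond 0.31, the largest yardstick difference of any member, 23 were lower and 2 were higher. The count beyond 0.31 was not made over all genes. Both arrays lay on the same slide.

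With the fibroblasts labelled Lpar1-/-, members were also lower. Wild-type mast cells on Lpar1-/- fibroblasts had lower signal than those on Lpar1+/+ fibroblasts in 8 of the 38 members (21.1%), against 8.84% of 24545 genes, and higher signal in 0, against 11.3% of genes. The median difference was -0.49, against -0.05 over all genes. Below 0 lay 34 of 38 members, against 12949 of 24545 genes. Beyond 0.31, 28 were lower and 0 were higher, a count not made over all genes.

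The 8 members were the same ones in both comparisons: Myc, Nop58, Gnl3, Ddx21, Rrp12, Bysl, Ppan and Srm, which is 100% of each list. These comparisons share no array, although all 4 arrays lay on 1 slide. Over all 22432 genes compared in both, 65.7% of the genes lower under the Pla2g3-/- label were also lower with Lpar1-/- fibroblasts, and 72.6% of those lower with Lpar1-/- fibroblasts were lower under the label. Overlap was therefore high for genes in general. As a description across genes, which are not independent replicates, the members' differences correlated with r = 0.93 and rho = 0.84 (38 members), with r = 0.89 without Myc (37 members), and with r = 0.85 over all genes. In 35 of 38 members the sign was the same, and 31 were below 0 in both, counts not made over all genes.

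**Figure D2:**
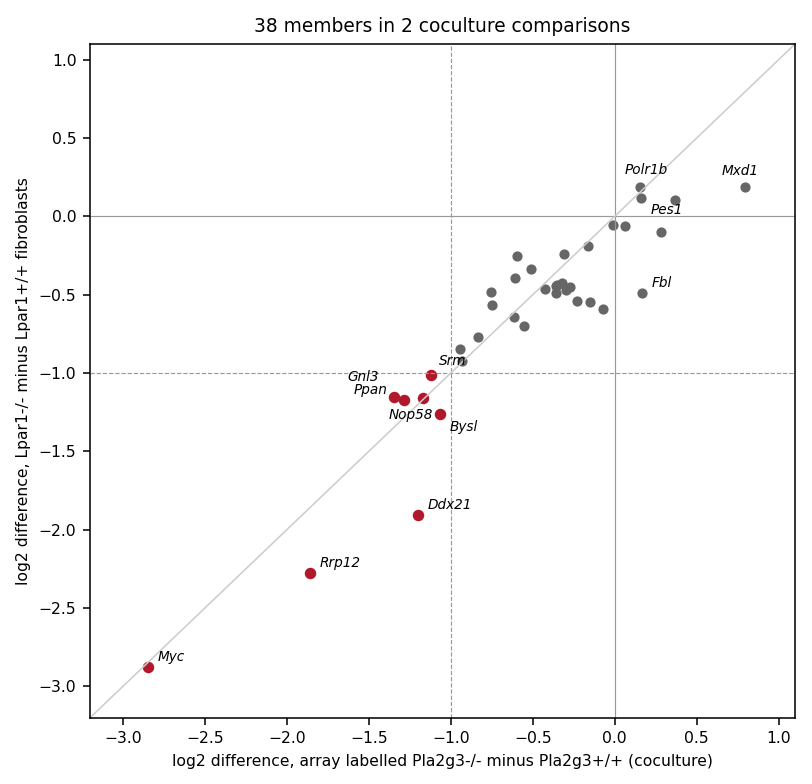
Each point is 1 of the 38 members: x, its log2 difference in coculture, array labelled Pla2g3-/- minus Pla2g3+/+; y, its log2 difference between wild-type mast cells on Lpar1-/- and on Lpar1+/+ fibroblasts. Dashed lines mark 2-fold lower and the diagonal equal differences; the 8 red points are the members past 2-fold in both, Myc lies near -2.9 on both axes, and Fbl and Mxd1 are among the points farthest to the right of the diagonal.

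Myc, the transcription factor that gives the group its name, showed the largest difference of any member in both. It read -0.89 on the coculture array labelled Pla2g3-/- and 1.95 on the Pla2g3+/+ coculture array, a 7.18-fold lower signal. It read -1.03 with Lpar1-/- and 1.85 with Lpar1+/+ fibroblasts, a 7.34-fold lower signal. Without fibroblasts it read 2.20 under the Pla2g3-/- label and 2.15 with Pla2g3+/+, so 4 arrays lay between 1.85 and 2.20 and 2 lay near -1. The Myc probe lies on chromosome 15, 61821417 to 61821476 (mm9, plus strand). No mm9 annotation was used here, so its exon is not stated.

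The other MYC network members did not follow Myc. Max, the common partner, read 3.08 on the coculture array labelled Pla2g3-/- and 2.80 on the Pla2g3+/+ coculture array, and 2.75 with Lpar1-/- and 2.85 with Lpar1+/+ fibroblasts. Mxd1, a MAX-binding repressor, read 1.75 under the label and 0.96 with Pla2g3+/+ in coculture, a difference of 0.79. With Lpar1-/- fibroblasts Mxd1 read 1.46, against 1.28 with Lpar1+/+ fibroblasts, a difference of 0.19 that is smaller than its yardstick difference of 0.31. Mxd4, a second MAX-binding repressor, differed by 0.37 and 0.11 in these comparisons with its brightest probe and by 1.14 and 0.95 with its other probe, so its probes disagree on size.

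RNA polymerase I, the enzyme that makes the ribosomal RNA precursor, was represented by the genes of its largest subunits. Polr1a read 0.35 on the coculture array labelled Pla2g3-/- and 0.86 on the Pla2g3+/+ coculture array, and 0.50 with Lpar1-/- and 0.83 with Lpar1+/+ fibroblasts. Polr1b lay slightly the other way, at -0.99 under the label and -1.14 with Pla2g3+/+, and at -0.98 with Lpar1-/- and -1.17 with Lpar1+/+ fibroblasts. Neither gene passed 2-fold in these comparisons.

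Proteins of the box C/D particles, which guide methylation of ribosomal RNA, were split. Nop58, a core scaffold protein, read 1.42 on the coculture array labelled Pla2g3-/- and 2.58 on the Pla2g3+/+ coculture array (2.25-fold lower), and 1.49 with Lpar1-/- and 2.65 with Lpar1+/+ fibroblasts (2.23-fold lower). Its paralog Nop56 lay just short of 2-fold, with differences of -0.94 and -0.85, and its other probes gave -1.03 and -0.98 under the Pla2g3-/- label. Fbl, the methyltransferase of the same particle, differed by 0.17 under the label and by -0.49 with Lpar1-/- fibroblasts, so its sign was not shared. Both scaffold genes were thus low on the same 2 arrays, whereas Fbl was not.

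The box H/ACA particles, which guide pseudouridine formation, had 0 of 3 members past 2-fold in either comparison. Of all genes 10.4% were lower under the label and 8.84% with Lpar1-/- fibroblasts, so nothing is read from 0 of 3. Dkc1, the pseudouridine synthase, differed by -0.16 under the Pla2g3-/- label and by -0.19 with Lpar1-/- fibroblasts. Gar1 and Nhp2, its partners, differed by -0.07 and -0.56 under the label, and by -0.59 and -0.70 with Lpar1-/- fibroblasts. All 3 genes were below 0 in both comparisons, with Dkc1 and Gar1 within 0.31 under the label.

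Nucleolar proteins with several tasks included 2 of the 8 lower members. They were 2 of 6 (33.3%), against 10.4% of all genes under the label and 8.84% with Lpar1-/- fibroblasts. Gnl3, the GTPase nucleostemin, read -0.61 on the coculture array labelled Pla2g3-/- and 0.74 on the Pla2g3+/+ coculture array (2.55-fold lower), and -0.26 with Lpar1-/- and 0.89 with Lpar1+/+ fibroblasts (2.22-fold lower). Ddx21, an RNA helicase of the nucleolus, read 1.5 under the label and 2.70 with Pla2g3+/+ (2.29-fold lower), and 0.79 with Lpar1-/- and 2.70 with Lpar1+/+ fibroblasts (3.75-fold lower). The probes of Ddx21 disagreed on size, since its dimmer probe differed by -0.24 and -0.53, and with the mean of probes Ddx21 was at -0.72 under the label and -1.22 with Lpar1-/- fibroblasts. Nolc1, a chaperone of these particles, differed by -0.83 and -0.77, and Mybbp1a by -0.23 and -0.54. The abundant proteins nucleolin (Ncl, -0.32 and -0.42) and nucleophosmin (Npm1, -0.36 and -0.49) differed less than 2-fold, and all 5 Npm1 probes were below 0 in both.

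Among 7 factors of the small subunit, 2 passed 2-fold and all 7 lay below 0 in both comparisons. The 2 were 28.6%, against 10.4% of all genes under the label and 8.84% with Lpar1-/- fibroblasts. Rrp12, which acts in the export of subunits from the nucleus, read -4.86 on the coculture array labelled Pla2g3-/- and -3.0 on the Pla2g3+/+ coculture array (3.63-fold lower), and -5.13 with Lpar1-/- and -2.86 with Lpar1+/+ fibroblasts (4.84-fold lower). Rrp12 was dim on every array, although well above background on all 6, and its size depends on the background correction: with normexp its differences were -1.11 under the label and -1.38 with Lpar1-/- fibroblasts. Bysl, a late assembly factor, read 0.39 under the label and 1.45 with Pla2g3+/+ (2.09-fold lower), and 0.24 with Lpar1-/- and 1.5 with Lpar1+/+ fibroblasts (2.40-fold lower). Pno1, which binds the maturing small subunit, lay just outside at -0.93 and -0.92. Wdr43 (-0.75 and -0.48), Rrp9 (-0.61 and -0.64), Utp20 (-0.36 and -0.45) and Noc4l (-0.31 and -0.24) followed.

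Of 11 factors of the large subunit, Ppan alone passed 2-fold (9.09%, near the 10.4% and 8.84% of all genes in these comparisons). It read 0.90 on the coculture array labelled Pla2g3-/- and 2.19 on the Pla2g3+/+ coculture array (2.44-fold lower), and 1.04 with Lpar1-/- and 2.21 with Lpar1+/+ fibroblasts (2.26-fold lower). The group's medians were -0.30 under the label and -0.45 with Lpar1-/- fibroblasts. Rrs1 (-0.75 and -0.56) and the ribosomal RNA methyltransferase gene Nop2 (-0.59 and -0.25) differed most after Ppan under the label.

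Pes1, Bop1 and Wdr12, whose proteins form 1 complex in large subunit assembly, did not move together. Bop1 differed by -0.27 and -0.45, and Wdr12 by -0.29 and -0.47, whereas Pes1 differed by 0.16 and 0.12. The other Pes1 probe gave -0.75 and -0.73, so the direction of Pes1 depends on the probe. Noc2l and the helicase Ddx18 lay within 0.07 of 0 in both comparisons. The remaining members Wdr74, Ebna1bp2 and Nop16 lay between -0.55 and -0.15, and 1 of the 3 Ebna1bp2 probes went up, by 0.47 and 0.80.

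Polyamine synthesis, which growing cells need, was represented by 2 enzymes. Srm, spermidine synthase, read 0.60 on the coculture array labelled Pla2g3-/- and 1.72 on the Pla2g3+/+ coculture array (2.18-fold lower), and 0.69 with Lpar1-/- and 1.70 with Lpar1+/+ fibroblasts (2.01-fold lower). Its second probe gave -1.05 and -1.02. Odc1, ornithine decarboxylase, differed by -0.61 and -0.40. Just inside the 2-fold limit were Bysl (-1.06) under the Pla2g3-/- label and Srm (-1.01) with Lpar1-/- fibroblasts. Other scalings put both just outside, Bysl at -0.96 with normexp background correction and Srm at -0.94 with quantile normalization.

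**Figure D3:**
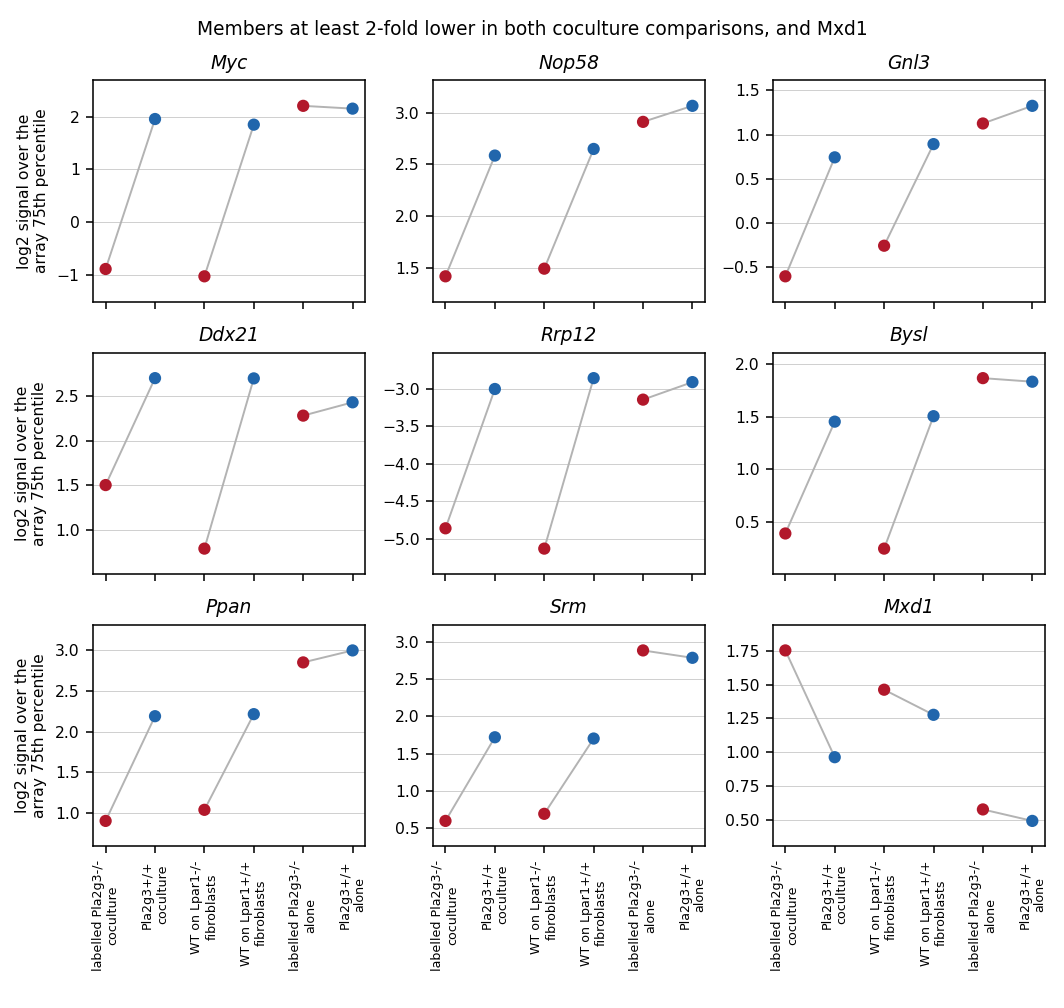
Log2 signal over the array's 75th percentile (y, scaled per panel) of the 8 members at least 2-fold lower in both coculture comparisons, and of Mxd1, on the 6 arrays (x). Red points are arrays labelled Pla2g3-/- or with Lpar1-/- fibroblasts, blue points their counterparts, and grey lines join each pair; in the first 8 panels the 2 red coculture points lie below the other 4 points, and in the Mxd1 panel all coculture points lie above those without fibroblasts.

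Without fibroblasts, the arrays with the 2 mast cell labels had levels of these genes that differed by less than the yardstick's largest member difference. Of the 38 members 0 were higher and 0 lower by 2-fold on the array labelled Pla2g3-/- than on the Pla2g3+/+ array, against 0.423% and 1.58% of 21752 genes. Differences ran from -0.23 (Rrp12) to 0.23 (Mxd4), with a median of -0.12 against 0.00 over all genes. Below 0 lay 30 of 38 members, against 10694 of 21752 genes. No member exceeded 0.31, the largest yardstick difference. Myc differed by 0.05. Between the 2 mast cell labels, members thus passed 2-fold in coculture and none did in the cells alone. A small shift below 0 was still shared by most members in the cells alone. Its median of -0.12 was larger in size than the yardstick's standard deviation of 0.08. The difference of differences sets the coculture values against those of the cells alone. Mast cells labelled Pla2g3-/- minus Pla2g3+/+ mast cells, in coculture minus alone, gave a median of -0.36 over the members, against -0.06 over all genes. In it 8 of 38 members were lower, against 10.4% of 23139 genes, and 0 higher, against 9.56%. Myc was -2.90, Rrp12 -1.63 and Srm -1.22 in it, and the slide cancels in this difference.

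Coculture was set against mast cells alone for each label. Cocultures were all on 1 slide and cells alone on the other, so coculture, slide and stem cell factor cannot be told apart. Over all genes the median difference was 0.12 for cells labelled Pla2g3-/- and 0.13 for Pla2g3+/+ cells, so changes of the members are read against these shifts.

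For mast cells labelled Pla2g3-/-, coculture came with lower signal across much of the group. Lower by 2-fold were 16 of 38 members (42.1%), against 7.3% of 22349 genes, and 1, Mxd1, was higher, against 11.4% of genes. The median difference was -0.94, and 33 of 38 members lay below 0, against 9599 of 22349 genes. Myc was 8.54-fold lower, at -0.89 in coculture and 2.20 alone. Srm was 4.88-fold lower (0.60 in coculture and 2.89 alone), and Ppan 3.85-fold lower (0.90 in coculture and 2.85 alone). Small subunit factors were lower in 5 of 7 (median -1.18), large subunit factors in 4 of 11 (median -0.67), and box H/ACA proteins in 0 of 3 (median -0.90). Both polyamine enzymes were lower, Odc1 by 2.61-fold. Mxd1 was 2.26-fold higher, at 1.75 in coculture and 0.57 alone, and its second probe gave 1.63. Npm1 (-0.11) and Utp20 (-0.12) were closest to 0. Dimmer probes of Polr1a (-2.11), Ebna1bp2 (-1.15) and Nop56 (-1.10) also passed 2-fold lower, and that of Mxd4 (1.17) higher. With the mean of probes 18 members were lower and 1 higher. Several of the 16 lay near the limit: Polr1b, Rrp12 and Wdr74 fell short with normexp (-0.95, -0.99 and -0.99), and Nolc1, Pno1 and Nop2 with quantile normalization (-0.96, -0.96 and -0.97).

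For Pla2g3+/+ mast cells the difference between coculture and cells alone was smaller in most members. Lower by 2-fold were 3 of 38 (7.89%), close to the 7.52% of 22615 genes, and 0 were higher, against 13.0% of genes. The 3 were Polr1b (2.49-fold), Srm (2.09-fold) and Fbl (2.07-fold). Dimmer probes of Polr1a (-1.73), Ebna1bp2 (-1.75), Wdr43 (-1.30) and Odc1 (-1.24) also passed 2-fold lower, and that of Mxd1 (1.00) higher. The brightest probes of these genes did not, and the mean of probes again gave 3 lower and 0 higher members. Polr1b read -1.14 in coculture and 0.17 alone, and Fbl 2.20 in coculture and 3.25 alone. The median difference was -0.46, and 30 of 38 lay below 0, against 9344 of 22615 genes. Myc differed by -0.20, Rrp12 by -0.09 and Ddx21 by 0.27, all within 0.31, the largest yardstick difference of any member. With the other wild-type coculture array Fbl was at -0.84 and no longer passed.

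The differences from cells alone came from separate arrays for each label. Members whose differences were alike included Polr1b (-1.08 for cells labelled Pla2g3-/- and -1.31 for Pla2g3+/+ cells), Fbl (-0.85 and -1.05), Dkc1 (-0.90 and -0.92) and Gar1 (-0.76 and -0.81). Gar1, for example, read 2.98 on the coculture array labelled Pla2g3-/-, 3.05 and 3.19 on the wild-type cocultures with Pla2g3+/+ and Lpar1+/+ labels, and 3.74 and 3.86 without fibroblasts. Of the 16 members lower against cells alone under the Pla2g3-/- label, 7 were also lower against the Pla2g3+/+ coculture and 9 were not. Both comparisons use the coculture array labelled Pla2g3-/-, so some overlap is built in. The same overlap was not counted over all genes, so nothing about the members is read from it.

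Other genes of ribosome production were taken from lists. Of 82 further ribosome biogenesis factors, 3 were lower and 0 higher in coculture under the Pla2g3-/- label than with Pla2g3+/+ (median -0.19), and 4 lower and 0 higher with Lpar1-/- fibroblasts than with Lpar1+/+ (median -0.28). Tsr1, a small subunit factor, read -0.40 under the label and 1.09 with Pla2g3+/+, and -0.34 with Lpar1-/- and 1.04 with Lpar1+/+ fibroblasts, the same pattern as the 8 members. Utp18 was 2.62-fold and 2.50-fold lower. Coculture against cells alone gave 13 lower (15.9%, against 7.3% of all genes) and 1 higher under the label (median -0.47). With Pla2g3+/+ it gave 6 lower (7.32%, near the 7.52% of all genes) and 1 higher (median -0.29). Nob1, which makes the final cut of the small subunit's RNA, was 3.09-fold and 2.73-fold lower there. Lyar, the 1 higher factor in both, was dim on every array and was 2.01-fold lower under the label without fibroblasts, the 1 gene of the 82 past 2-fold there. By share, 3.66% and 4.88% of the 82 were lower in the label and fibroblast comparisons, below the share of all genes.

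Ribosomal proteins, the structural parts of the ribosome, hardly moved. In the comparisons with cocultures, 7.3% to 10.4% of all genes were lower and 9.1% to 13.0% higher. Between the labels without fibroblasts these shares were 1.58% and 0.423%, so a count of 0 tells little there. Of the 76 ribosomal protein genes, 0 were higher and 0 lower by 2-fold in any of the 5 comparisons with a genotype or with cells alone. Their medians were 0.03 under the label in coculture, -0.13 with Lpar1-/- fibroblasts, 0.02 for coculture against cells alone under the label, -0.08 with Pla2g3+/+, and -0.03 between the labels without fibroblasts. The 3 medians that involve an array labelled Pla2g3-/- change sign under another scaling or probe rule, so no direction is read from them.

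Of 24 other genes of RNA polymerases I and III, out of 27 listed, 1 was lower in coculture under the label (4.17%, against 10.4% of all genes; median -0.15), and 2 were lower (8.33%, against 8.84%) and 1 higher with Lpar1-/- fibroblasts (median -0.25). These shares are below or near those of all genes. Polr3d, a subunit of RNA polymerase III, was lower in both, by 3.00-fold and 2.69-fold. Taf1d was 2.16-fold lower and Brf2 2.05-fold higher with Lpar1-/- fibroblasts. Coculture against cells alone gave 2 lower, 8.33% against 7.3% of all genes, and 0 higher under the label (Polr3e 2.25-fold and Taf1b 2.00-fold; median -0.24), and 0 in either direction with Pla2g3+/+ (median -0.17).

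**Figure D4:**
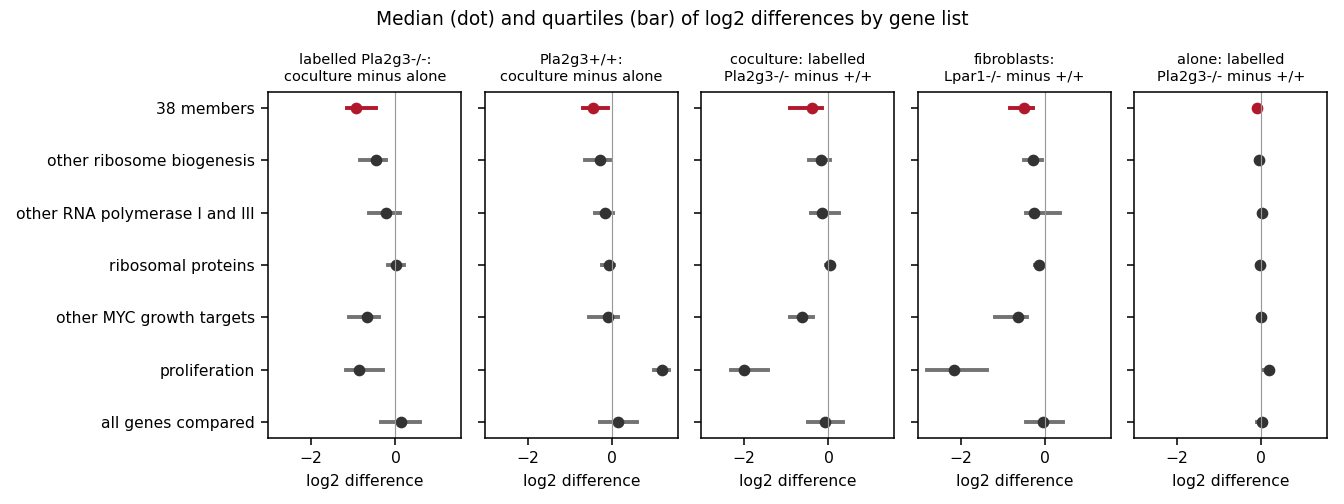
Median (dot) and quartiles (bar) of the log2 differences of each gene list (rows) in 5 comparisons (panels). The 38 members (red) lie below 0 in the first 4 panels with medians of -0.94, -0.46, -0.39 and -0.49, the ribosomal proteins lie near 0 in all 5, and the proliferation genes lie above 0 in the panel of Pla2g3+/+ coculture minus alone (1.19) and below 0 in the other panels with cocultures.

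Among 14 further genes of the MYC network, Mycn, a close relative of Myc, showed the same pattern as Myc. It read -2.93 on the coculture array labelled Pla2g3-/- and 0.04 on the Pla2g3+/+ coculture array (7.83-fold lower), -4.29 with Lpar1-/- and -0.48 with Lpar1+/+ fibroblasts (14.1-fold lower), and 1.15 and 1.21 without fibroblasts. Unlike Myc, it was also 2.24-fold lower in Pla2g3+/+ coculture than in Pla2g3+/+ cells alone. Mxd3, another MXD repressor, was 2.71-fold lower under the label and 10.1-fold lower with Lpar1-/- fibroblasts. Of the genes that could be compared, 3 of 13 were lower (23.1%, against 10.4% of all genes) and 1 higher (7.69%, against 9.1%) under the label. With Lpar1-/- fibroblasts 4 of 14 were lower (28.6%, against 8.84%) and 1 higher (7.14%, against 11.3%). Their medians, 0.14 and -0.20, change sign under other settings.

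Of 38 other growth genes known as MYC targets, 9 were lower and 0 higher under the label in coculture (23.7%, against 10.4% of all genes; median -0.64), and 12 lower and 0 higher with Lpar1-/- fibroblasts (31.6%, against 8.84%; median -0.64). Tfrc, the transferrin receptor that brings iron into growing cells, was 8.60-fold and 4.70-fold lower. Shmt1, of folate metabolism, was 5.08-fold lower under the label, and Eif4e, the cap-binding initiation factor, 3.29-fold lower with Lpar1-/- fibroblasts. Each was low in the other comparison too. Shmt1 read -4.42 with Lpar1-/- and -2.71 with Lpar1+/+ fibroblasts, and Eif4e 0.63 under the label and 2.30 with Pla2g3+/+ in coculture. Coculture against cells alone gave 12 lower (31.6%, against 7.3% of all genes) and 0 higher under the label (median -0.68), with Tfrc 14.9-fold and the mitochondrial folate enzyme gene Mthfd2 7.89-fold lower. With Pla2g3+/+ it gave 2 lower (5.26%, below the 7.52% of all genes) and 1 higher, Shmt1, by 2.93-fold (median -0.10).

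Of 10 other polyamine genes, 1 was higher and 1 lower in each of the label and fibroblast comparisons (medians -0.03 and -0.08, whose sign changes under other settings). These shares of 10% are near those of all genes. Of all genes, 9.1% were higher and 10.4% lower under the label, and 11.3% higher and 8.84% lower with Lpar1-/- fibroblasts. Smox, spermine oxidase, which breaks polyamines down, read 2.90 on the coculture array labelled Pla2g3-/- and 1.13 on the Pla2g3+/+ coculture array (3.41-fold higher), and 3.17 with Lpar1-/- and 1.12 with Lpar1+/+ fibroblasts (4.13-fold higher). Azin1, which protects ornithine decarboxylase from degradation, was 2.05-fold and 3.31-fold lower. Against cells alone, 0 of the 10 passed 2-fold under the label. With Pla2g3+/+ 1, Smox, was lower by 2.41-fold (10%, near the 7.52% of all genes).

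Signals of proliferation and of other cells moved with these comparisons. Of 21 proliferation genes, 18 were lower and 0 higher under the label in coculture (85.7%, against 10.4% of all genes; median -2.01), and 18 lower and 0 higher with Lpar1-/- fibroblasts (85.7%, against 8.84%; median -2.17). Their summed signal was 73.0 on the coculture array labelled Pla2g3-/- and 208.8 on the Pla2g3+/+ coculture array, 59.7 with Lpar1-/- and 198.9 with Lpar1+/+ fibroblasts, and 108.4 and 99.0 without fibroblasts. Against cells alone, 9 were lower and 0 higher under the label (42.9%, against 7.3% of all genes; median -0.88), while 16 were higher and 0 lower with Pla2g3+/+ (76.2%, against 13.0%; median 1.19). In Pla2g3+/+ coculture, proliferation genes were thus above their level without fibroblasts while the 38 members had a median of -0.46.

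Fibroblast genes were lower by 2-fold in 9 of 18 and higher in 0 under the Pla2g3-/- label in coculture, with sums of 17.1 under the label and 37.0 with Pla2g3+/+. With Lpar1-/- fibroblasts 5 of 19 were higher (26.3%, against 11.3% of all genes) and 0 lower (against 8.84%). The sums there were nonetheless 37.9 with Lpar1-/- and 37.4 with Lpar1+/+ fibroblasts. Acta2, smooth muscle actin, was 6.75-fold and the collagen-linking enzyme gene Lox 2.76-fold higher there. The part of fibroblast RNA in the members' differences was not tested. The summed signal of 12 macrophage genes was 3.16 under the label and 10.4 with Pla2g3+/+ in coculture, 2.06 with Lpar1-/- and 10.1 with Lpar1+/+ fibroblasts, and 2.62 and 3.41 without fibroblasts. Of the 12, 8 and 10 were well above background on the first pair, 10 and 12 on the second, and 9 on each array without fibroblasts; C1qa was not well above background on 4 of the 6 arrays. The part of macrophage RNA in the members' differences was not tested. The sum of 12 granulocyte genes was 2.24 under the label and 4.51 with Pla2g3+/+ in coculture, and 13.9 with Lpar1-/- and 4.95 with Lpar1+/+ fibroblasts. Without fibroblasts it was 2.85 and 43.0. S100a9 was the brightest of these genes on every array except the coculture array labelled Pla2g3-/-, where Elane was. The part of granulocyte RNA was not tested. Some mast cell genes moved with the comparisons too. Of 10, 3 were lower and 0 higher by 2-fold under the label in coculture (30.0%, against 10.4% of all genes; median 0.00). With Lpar1-/- fibroblasts 3 were lower and 0 higher (30.0%, against 8.84%; median -0.21). These were Hdc, the histamine-forming enzyme, and the proteases Mcpt4 and Tpsb2. Hdc read 0.46 under the label and 2.75 with Pla2g3+/+ (4.88-fold lower), and -0.97 with Lpar1-/- and 2.32 with Lpar1+/+ fibroblasts (9.74-fold lower). Mcpt4 read 4.66 under the label and 5.79 with Pla2g3+/+, and 3.59 with Lpar1-/- and 5.8 with Lpar1+/+ fibroblasts. Tpsb2 read 4.49 under the label and 5.70 with Pla2g3+/+, and 4.49 with Lpar1-/- and 5.71 with Lpar1+/+ fibroblasts. The part of these shifts in the members' differences was not tested.

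The members were also divided by motif, as a description. In coculture under the Pla2g3-/- label, members with CACGTG had a median of -0.29 and the other members with a window -0.43. With Lpar1-/- fibroblasts these medians were -0.35 and -0.47. Members with CACGCG had medians of -0.58 and -0.62 in these comparisons, and those without it -0.35 and -0.44.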

How the data were processed

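Single-colour Cy3 Agilent arrays were hybridised, 1 for each of 6 groups. Per the file headers, the authors' processed intensity of each spot came from Agilent Feature Extraction (12.1.1.1 in the submitters' processing notes), with spatial detrending and a surrogate for dim spots. The authors' value table, a linear signal, equalled this intensity divided by 1 constant per array, so its scale and direction were settled. Its column medians ran from 0.0338 to 0.0483.

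Here log2 of the intensity minus the array's 75th percentile over 43020 noncontrol spots was used, after 84 to 115 outlier spots per array were dropped, and 0 spots were saturated. Accessions and symbols were updated through the gene table of GRCm38.p6. Python 3.11.15 with pandas 2.3.3 was used, and limma 3.58.1 in R 4.3.3 for normexp. The counting of 2-fold calls was tested on simulated data. Genes dim on every array of a comparison were left out, and against a dim array a value is a bound. Every member may be named; of each other list, the 2 highest and 2 lowest genes past 2-fold and well above background on both arrays. Members and lists were chosen with earlier results of these data known.

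The alternatives were normexp with an offset of 50, quantile normalization, centring on the median of all genes, the mean of a gene's probes, 2 other filters on dim probes, the authors' value table, the other wild-type coculture array and, chosen after seeing the data, the other array without fibroblasts.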

Additional observations from a re-analysis of the deposited data

Results flagged for a closer look

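For 7 named genes and 1 gene list, coculture minus cells alone went in opposite directions for cells labelled Pla2g3-/- and for Pla2g3+/+ cells, each by more than the scanner error of 0.20. With 1 array per group the difference between these effects was not tested. Among the members this was the helicase gene Ddx21, at -0.78 under the label and 0.27 with Pla2g3+/+, a difference of -1.05. The 0.27 lies within 0.31, the largest yardstick difference of any member, so no direction is read from it. The dimmer Ddx21 probe was below 0 in both.

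Among the other lists it was Shmt1 (-0.72 under the label and 1.55 with Pla2g3+/+, a difference of -2.27) and Mxd3 (-0.59 and 1.18, a difference of -1.77). Eif4e gave -1.24 and 0.35 (a difference of -1.59), Polr3d -0.96 and 0.61 (-1.57), and Azin1 -0.44 and 0.66 (-1.10). Smox went the other way, at 0.54 under the label and -1.27 with Pla2g3+/+, a difference of 1.81. The median over 21 proliferation genes was -0.88 under the label and 1.19 with Pla2g3+/+, and the median of the gene-wise differences between these effects was -2.19.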

How the results depend on the processing

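Of 36 member values past 2-fold in the 5 comparisons with a genotype or with cells alone, 0 changed direction under any alternative. Still past 2-fold were 36 with the authors' value table and with both other filters on dim probes, 35 with the mean of probes, 34 with centring, 32 with quantile normalization and 31 with normexp, and 18 of 19 with the other wild-type coculture array and 20 of 20 with the other array without fibroblasts. Lost were Ddx21 with the mean of probes (-0.72) and Bysl with normexp (-0.96) and centring (-0.99), in coculture under the Pla2g3-/- label, and Srm with Lpar1-/- fibroblasts (-0.98 with normexp, -0.94 with quantile normalization, -0.96 with centring). The members' median moved by more than the spread of the yardstick pair in these cases. For coculture against cells alone under the label (-0.94) it was -0.83 with normexp, -0.85 with quantile normalization, -1.06 with centring and -1.02 with the other array without fibroblasts. With Pla2g3+/+ (-0.46) it was -0.59 with centring, which also gave 5 lower members in place of 3, and -0.35 with the other array without fibroblasts. In coculture under the label (-0.39) it was -0.55 with the mean of probes and -0.47 with the other wild-type array, and with Lpar1-/- fibroblasts (-0.49) it was -0.40 with quantile normalization. The cause was not tested. Of all genes past 2-fold in coculture against cells alone, 61.0% were higher under the label (51.0% with quantile normalization, 51.3% with centring) and 63.4% with Pla2g3+/+ (50% and 53.8%). No paired analysis was possible because each group has 1 array, and for the same reason no replicate could be left out. Signal over background limits the dim member Rrp12, whose differences fell in size with normexp to -0.99 against cells alone under the label (-1.72 before), -1.11 in coculture under the label (-1.86) and -1.38 with Lpar1-/- fibroblasts (-2.28), and precision is limited by having 6 arrays.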
